A study of Mus musculus with 22 samples.

Results

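The transcriptome of Panc02 tumours was set against that of the same cell line in culture. Panc02 is a mouse pancreatic cancer line, and the tumours were grown from it as allografts in mice, a model that the series describes as syngeneic. The comparison took 10 of the 22 libraries of the series, chosen by their labels, namely 8 allografts and 2 libraries of cultured Panc02. Allografts 1 to 4 came from female mice and allografts 5 to 8 from male mice, and both cultures were Panc02 grown alone. The labels name no agent and no genetic change for these groups beyond the graft itself, and the strain, age, injection site and time of growth of the hosts were not given in the sources used here. The labels do not say whether the culture libraries came from separate cultures, so the p-values reflect the spread among the libraries at hand, which for the cultures may be technical. The 4 libraries of freshly isolated natural killer (NK) cells in the series served to tell which genes a host lymphocyte expresses and as the reference level of sex-linked genes.

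A grafted tumour is a mixture. Cancer cells grow among host macrophages, lymphocytes, vessels and fibroblasts, and at its edge a sample can take in muscle, fat or skin. RNA of host cells adds transcripts that the cultured line lacks, and it dilutes the transcripts of the cancer cells in the same library. Cells on plastic in rich medium are known for rapid division and high biosynthesis, whereas tissue brings them into contact with matrix, immune signals and limited oxygen. Genes absent in culture were therefore described apart from genes of the cultured cells that were lower in tumours than dilution alone would give.

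The 10 libraries held 26140269 to 46842646 counts each. The culture pair differed by 5.25 chi-square units per gene, and pairs of tumours of the same host sex by 47.6 to 233 units, so the tumours varied more among themselves than the cultures did. Cultured Panc02 expressed the keratins of simple epithelia Krt8 (1437 and 1438 CPM, CPM being counts scaled to the library's total on genes) and Krt18 (956.5 and 956.4 CPM) together with the mesenchymal filament gene Vim (3981 and 4052 CPM), but hardly any Epcam, an epithelial surface protein (1.11 and 0.855 CPM). The macrophage, T cell, NK cell and fibroblast genes Lyz2, Trbc2, Prf1 and Dcn had 0 counts in both cultures. Sex-linked RNA followed the host labels, with traces of the other sex in 2 tumours. Xist, the RNA of the inactive X chromosome, was 41.5, 162, 98.2 and 90.3 CPM in allografts 1 to 4 and 0.708, 0.523, 8.94 and 1.10 CPM in allografts 5 to 8. Ddx3y, a gene of the Y chromosome, was 0.550, 0, 0 and 0 CPM in allografts 1 to 4 and 14.7, 13.6, 9.81 and 10.4 CPM in allografts 5 to 8. Allograft 7, from a male host, thus held the most Xist of its group, and allograft 1, from a female host, held some Ddx3y. Cultures and tumours were deposited in separate tables and their libraries were started from different amounts of RNA, so batch and the difference between culture and tumour cannot be told apart.

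Across the genome more genes were higher in the tumours than lower. Of 23264 genes tested, 9015 were higher in the allografts (38.8%) and 5432 were lower (23.3%), together 62.1%, by edgeR's quasi-likelihood test at a Benjamini-Hochberg adjusted p under 0.05. The median gene was 0.42 higher on the log2 scale, and 0.36 higher when libraries were scaled by total counts alone. In bulk RNA, fewer cells of a type and less RNA per cell cannot be told apart, and neither can host cells and tumour cells that have switched a gene on. Among the 10617 genes with at least 5 CPM in both cultures, called genes of cultured cells below, 4666 were lower (43.9%), with a median log2 fold change of -0.26. Choosing genes by their level in culture itself favours lower values in tumours, so nothing is read from that share.

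**Figure D1:**
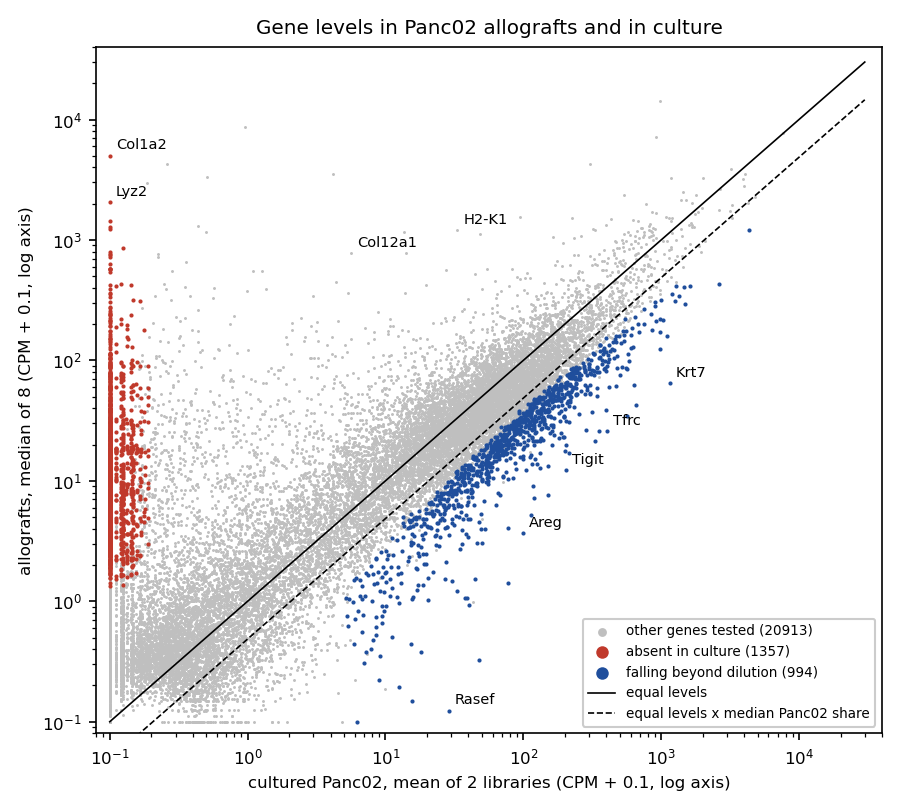
Level of each gene in the 8 allografts (median, vertical axis) against cultured Panc02 (mean of 2 libraries, horizontal axis), both as CPM plus 0.1 on log axes. The 1357 genes absent in culture stand along the left edge and the 994 genes falling beyond dilution lie below the bulk of genes.

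How far dilution alone lowers a Panc02 gene was estimated from 129 restricted genes, those with at least 20 CPM in both cultures, at most 0.2 CPM in every fresh NK library and no place in a marker list of host cells. The median over these genes of the tumour level as a percent of the culture level was taken as the Panc02 share of a tumour's RNA. It was 49.3, 40.5, 47.5 and 39.3% in allografts 1 to 4 and 48.0, 57.9, 54.3 and 55.0% in allografts 5 to 8, with a median of 48.6% (SD 6.67, n = 8). Allografts 2 and 4 had the lowest shares. The estimate assumes that the middle restricted gene keeps its level in the cancer cells of a tumour, which was not tested. Restricted genes were also chosen by their level in culture, which itself favours lower values in tumours. A second estimate gave a different value. From Xist in female hosts and Y-linked genes in male hosts, set against their levels in fresh NK cells, the Panc02 share was 83.2 to 95.7%, with a median of 89.8%. The restricted genes themselves spread widely. Their lower quartile stood at 24.1% of culture in the median tumour, and their upper quartile at 87.8 to 102.6% over the 8 tumours. Their 90th percentile was 142 to 197%, so some restricted genes were higher in tumours than in culture. Beyond the marker lists, fresh NK cells were the only host cells used to exclude genes. Genes absent in culture took 4.17 to 10.4% of each tumour's counts. The main results use the first estimate, and the other estimates are given beside them because the number of genes called depends on this choice.

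**Figure D2:**
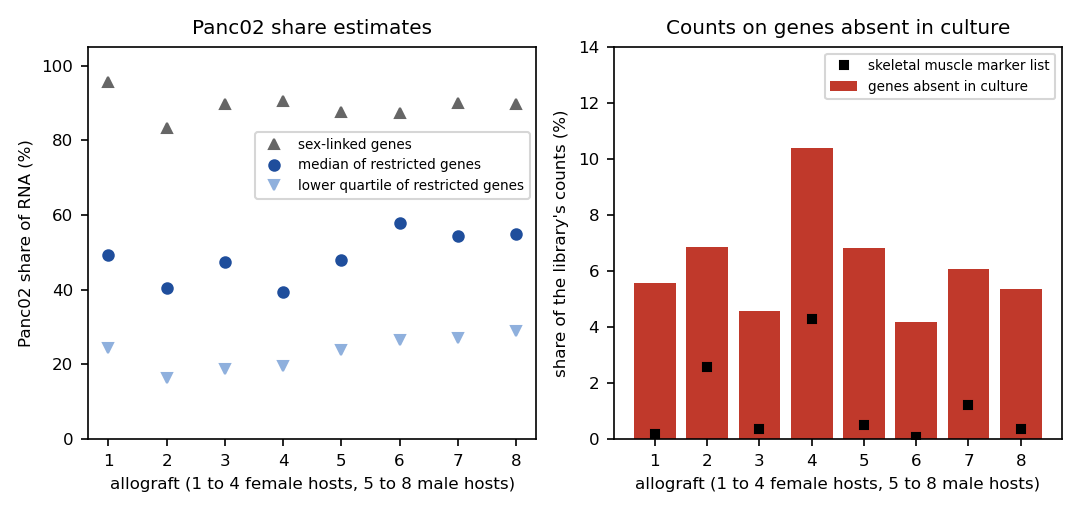
Left, the Panc02 share of RNA (%) in each allograft by 3 estimates: sex-linked genes (83.2 to 95.7%), the median of 129 restricted genes (39.3 to 57.9%) and their lower quartile (16.4 to 28.9%). Right, the percent of each library's counts on the 1357 genes absent in culture, highest in allograft 4 at 10.4%, and on the skeletal muscle marker list.

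Genes absent in culture were defined by level, as those at or under 0.1 CPM in both cultures and at or over 1 CPM in all 8 tumours. The rule took 1357 of the 78298 genes in the table (1.73%), and 928 of them had 0 counts in both cultures. Since the rule used the levels, these genes are a description and no test of them against culture is given as support. At the limit in culture stood Gli3 and Rasgrf2 (0.0950 CPM, inside) and Osr1 and Gbp8 (0.107 CPM, outside), and at the limit in tumours stood A530032D15Rik and Hoxb8 (1.004 CPM, inside) and Gm15867 and Radil (0.998 CPM, outside). Of the 1357 genes, 603 had at least 1 CPM in every fresh NK library and 770 had that level in at least 1 of them. Their levels differed more from tumour to tumour than those of genes with at least 5 CPM in both cultures, with a median coefficient of variation over the 8 tumours of 38.8% against 16.8%. Counting noise, which weighs more at low levels, was not removed, and the classes were cut at different levels. At least 5 CPM in all tumours was reached by 634 of the 1357 genes absent in culture. Per kilobase of transcript, the highest were the lysozyme gene Lyz2 at 1556 CPM per kb (median of the tumours), the antibody light chain gene Igkc at 1027, the complement genes C1qa and C1qb at 739.7 and 669.6, the MHC class II gene H2-Eb1 at 659.4, the chemokine gene Ccl8 at 599.5, the protease gene Ctss at 553.4 and the class II gene H2-Ab1 at 477.5. Most of these genes are known from macrophages and other antigen-presenting cells, and Igkc from B and plasma cells.

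Macrophage RNA was present in every tumour. Of the 14 genes of the macrophage list, 9 belonged to the genes absent in culture. Marker lists of host cells hold mostly genes at or near 0 in culture, so they are described by their levels and no count of called genes is given for them. The list summed to 24.4 and 25.6 CPM in the cultures and to 4018, 5263 and 8315 CPM in the lowest, median and highest tumour. Lyz2 was 0 in both cultures and 1496, 2047 and 3621 CPM in the lowest, median and highest tumour. Its mean over the tumours, 2201 CPM, was 65300-fold above the level that 3 counts over both cultures would give. C1qa, a subunit of complement C1q made by tissue macrophages, was 0 in culture and 605 to 1165 CPM in tumours. Allograft 1 had the highest level of both genes and the highest macrophage sum. The sums of the dendritic cell genes stayed between 194 and 265 CPM.

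Lymphocyte RNA was lower and more uneven. Of 12 T cell genes 9 were absent in culture by the rule, and the list had sums of 0.665 and 0.854 CPM in culture and 92.3 to 223.5 CPM in tumours. Trbc2, a T cell receptor chain, ranged from 10.0 to 34.3 CPM, the helper coreceptor Cd4 from 17.4 to 31.5 CPM and the cytotoxic coreceptor chain Cd8b1 from 3.73 to 19.4 CPM, all from 0 in culture. In fresh NK cells Trbc2 was at 69.2 to 106.5 CPM, above every tumour, so it does not mark T cells alone here. Cd4 was at 1.26 to 2.25 CPM there and Cd8b1 at most at 0.23 CPM. Of 10 NK cell genes 4 were absent in culture by the rule, whereas Eomes was expressed there and lower in tumours. Ncr1 and Klrb1c, receptors that define NK cells, had tumour medians of 0.714 and 0.831 CPM, and the cytotoxic genes Prf1 and Gzmb had medians of 7.14 and 4.34 CPM. Prf1 was at 1196 to 1440 CPM in fresh NK cells. The B and plasma cell list varied most among the lymphocyte lists, from 64.3 to 2351 CPM in tumours. Igkc was 10.3 CPM in allograft 2 and 1976 CPM in allograft 5. Its levels in female hosts (10.3 to 997 CPM) and male hosts (326.5 to 1976 CPM) overlapped.

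Granulocytes and mast cells were also represented. Among the neutrophil genes S100a9, an alarmin of neutrophils, was at 17.3 to 132 CPM, and Csf3r, the receptor of granulocyte colony-stimulating factor, was at 39.8 to 131 CPM. Ly6g, a surface marker of neutrophils, was lower, at 0.769 and 0.973 CPM in culture and at most 0.383 CPM in tumours, and Elane, a granule protease, was at 0 in 5 of the 8 tumours. The 6 mast cell genes all met the rule for genes absent in culture and summed to 183 to 532 CPM in tumours. Tpsb2, a mast cell tryptase, was 68.5 to 229 CPM and Mcpt4, a mast cell chymase, was 27.0 to 95.03 CPM. Both were highest in allograft 7.

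Vessels and stroma formed a further group. Of 12 endothelial genes 9 were absent in culture by the rule, with Cdh5, the cadherin of endothelial junctions, at 0 in culture and 31.1, 66.1 and 107 CPM in the lowest, median and highest tumour. Rgs5, a gene of pericytes, was the steadiest of the host genes shown, at 38.1 to 52.3 CPM. Of 10 fibroblast genes 7 were absent in culture by the rule, and Dcn, a small proteoglycan of connective tissue, was 94.0 to 778 CPM from 0 in culture. The Schwann cell list summed to 35.7 to 47.5 CPM in tumours and 48.2 to 49.8 CPM in culture. Acinar pancreas RNA was at most 1.23 CPM over 6 genes. A single acinar gene, Ctrb1, passed the filter for testing, with a log2 fold change of 1.42 and an edgeR adjusted p of 0.23.

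Skeletal muscle was the most uneven component. Ckm, muscle creatine kinase, was 0 in both cultures and 5802 CPM in allograft 4, 2845 CPM in allograft 2, 1549 CPM in allograft 7 and 112.8 to 691 CPM in the other 5 tumours. The same 3 tumours had the highest levels of Tnnt3, a fast muscle troponin, at 4177, 1738 and 929 CPM. The muscle list took 4.3, 2.6 and 1.2% of the counts in these tumours and 0.092 to 0.509% in the others. Fabp4, a fatty acid carrier of adipocytes, was highest in allografts 2 and 4, at 123 and 119.6 CPM. Allograft 7 had the highest epidermis sum, 273 CPM against 12.7 to 62.6 CPM in the others, and the highest Hbb-bs, a haemoglobin chain, at 294 CPM against 18.2 to 82.8 CPM. Hbb-bs is nearly identical to Hbb-bt and multi-mapping reads were counted, so the split between the pair is uncertain.

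**Figure D3:**
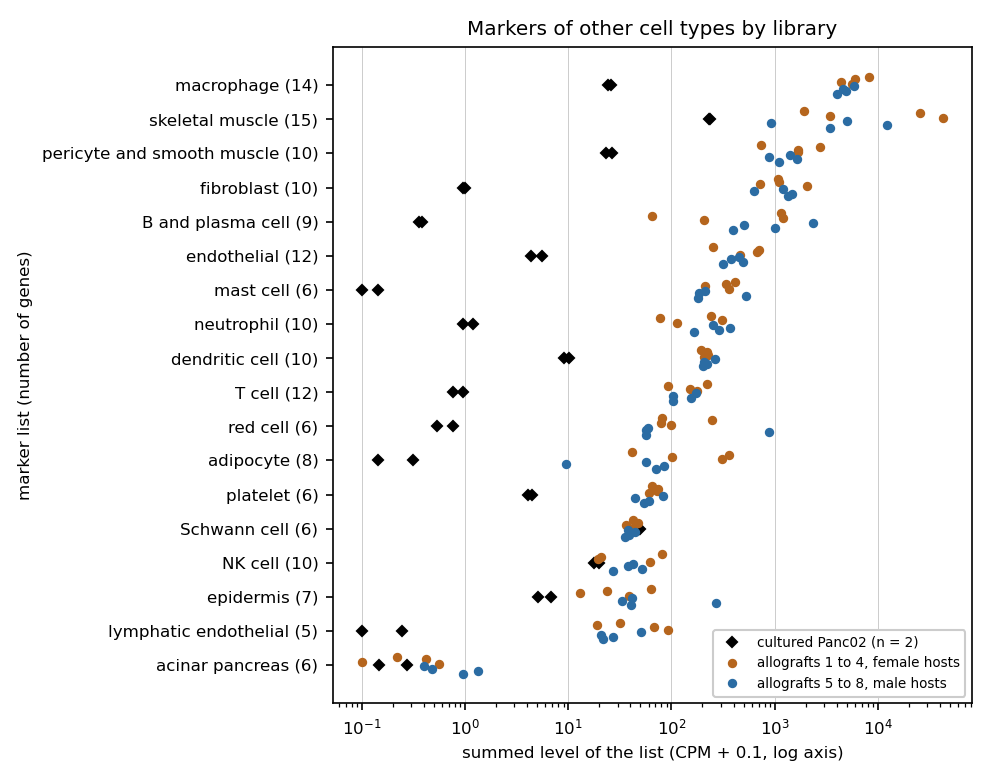
Summed level of 18 marker lists of other cell types in each library (CPM plus 0.1, log axis), with the 2 cultures and the 8 allografts as separate symbols. Macrophage sums of 4018 to 8315 CPM are tight, skeletal muscle sums spread most (924 to 42950 CPM) and acinar pancreas stays at or below 1.23 CPM.

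Genes of extracellular matrix were among the largest rises. Of 20 collagen and matrix genes 18 were higher by edgeR and 0 were lower, beside 38.8% and 23.3% of all genes tested. The count includes 4 genes absent in culture by the rule, which had to differ, and 9 of the 20 were genes of cultured cells. Col1a2, a chain of fibrillar collagen picked after its values were seen, was at 0 in both cultures and at 2738, 5017 and 9149 CPM in the lowest, median and highest tumour. Its partner Col1a1 was 0.897 and 0.807 CPM in culture and 3949 to 14050 CPM in tumours. Matrix genes that cultured Panc02 already expressed rose as well and took 4 of the 8 largest rises among genes of cultured cells. Col12a1, a fibril-associated collagen, rose from 5.42 and 5.55 CPM to between 391 and 1292 CPM (log2 fold change 7.26, SE 0.65, edgeR adjusted p = 9.5e-06). Col6a2, a chain of microfibrillar collagen, rose by 6.41 from 13.28 and 13.98 CPM to between 619 and 1572 CPM. Thbs2, a thrombospondin, rose by 5.97 and Mxra8, a matrix remodelling protein, by 4.72. A lack of overlap between tumours and cultures was a condition for naming these rises. Matrix proteases and their inhibitors were higher for 12 of 13, of which 2 were absent in culture by the rule. Among the 13 were 6 genes of cultured cells. Plau, the urokinase protease, rose by 2.56 and Mmp14, a membrane-bound collagenase, by 1.70.

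Antigen presentation and interferon response genes were higher throughout their lists, beside 38.8% of all genes tested. All 10 genes of MHC class I presentation, all 7 of class II, all 21 of the type I interferon response and all 16 of the interferon gamma response passed the test. Of these, 3, 4, 5 and 6 genes were absent in culture by the rule and had to differ, and among genes of cultured cells were 6, 0, 3 and 3. The remaining members were under 5 CPM in at least 1 culture and could enter the test through the tumours alone. The counts for class II and the interferon lists are therefore given as a description. H2-K1, a classical class I heavy chain, was 32.1 and 33.7 CPM in culture and 556, 1211 and 1802 CPM in the lowest, median and highest tumour (log2 fold change 5.27, SE 0.58, edgeR adjusted p = 3.6e-05). Tap1, which carries peptides to class I molecules, was 0.0214 and 0 CPM in culture and 74.6 to 176 CPM in tumours. Nlrc5, the activator of class I transcription, rose by 4.05 from 4.23 and 4.01 CPM, and Irf1, an interferon-induced transcription factor, rose by 3.24 from 22.6 and 21.4 CPM. Fresh NK cells held 2824 to 3047 CPM of H2-K1, and whether the RNA in tumours came from host or cancer cells cannot be told apart. The other large rises were Txnip, a thioredoxin-binding protein, by 4.94, Fcgrt, the neonatal Fc receptor, by 4.84, and Cyba, a subunit of the phagocyte oxidase, by 4.81.

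Among 9 ligands and checkpoints of NK and T cells that could be tested, 5 were higher and 1 was lower. Over all genes tested 38.8% were higher and 23.3% lower. Cd274, which encodes PD-L1 and was picked after its values were seen, was 1.13 and 1.61 CPM in culture and 10.1, 32.3 and 57.0 CPM in the lowest, median and highest tumour (log2 fold change 4.68, SE 0.89, edgeR adjusted p = 0.0017). Lgals9, a galectin, rose by 3.39, and H2-T23, which presents signal peptides to NKG2A receptors, rose by 3.34. Pvr, a ligand of TIGIT and DNAM-1, was 80.2 and 82.2 CPM in culture and 28.3 to 44.99 CPM in tumours. After scaling by Panc02 share Pvr stood at -0.12 on the log2 scale (adjusted p = 0.48).

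Hypoxia genes were higher for 8 of 14 and lower for 0, beside 38.8% higher and 23.3% lower over all genes tested. Car9, a carbonic anhydrase induced by low oxygen, was 0.406 and 0.285 CPM in culture and 3.59, 4.99 and 35.9 CPM in the lowest, median and highest tumour, with the highest levels in allografts 6 to 8. Ndrg1, a hypoxia-induced gene, rose by 3.00 from 61.4 and 62.8 CPM. Among 15 glycolysis genes 2 were higher and 5 lower. The higher were Slc16a3, a lactate transporter absent in culture and at 40.0 to 77.2 CPM in tumours, and Pfkp, a phosphofructokinase, by 0.33. The call for Pfkp was lost without culture library 1 or 2 (edgeR adjusted p 0.18 and 0.14) and in female hosts alone (0.57). Pkm, pyruvate kinase, was 0.97 lower and stood at 0.02 after scaling by share. Immediate early genes were higher for 9 of 16, such as Fos at 3.29 and 2.56 CPM in culture and 21.3 to 29.8 CPM in tumours, and lower for 3. Without allografts 2, 4 and 7, 7 were higher.

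Mesenchymal genes were higher for 8 of 9 and lower for 1, beside 38.8% and 23.3% of all genes tested. The count includes 1 gene absent in culture by the rule, which had to differ. Twist1, a transcription factor of mesenchyme, was 0.427 and 0.356 CPM in culture and 13.5, 30.4 and 46.3 CPM in the lowest, median and highest tumour (log2 fold change 6.35, SE 0.60, edgeR adjusted p = 1.1e-05). Snai2, a repressor of epithelial genes, was 0 in both cultures and 3.10 to 8.29 CPM in tumours. Fn1, fibronectin, rose by 3.05, Snai1 by 2.05 and Zeb1 by 1.18. Cdh2, Zeb2 and S100a4 were higher too, but without either culture library their edgeR adjusted p was 0.059 to 0.079. Vim was 0.43 lower, which likewise did not pass without either culture (adjusted p 0.095 and 0.13). Fibroblasts also express most of these genes, and the fibroblast list summed to 629 to 2049 CPM in the same tumours against 0.85 to 0.90 CPM in culture. Its part in these rises was not tested.

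Genes of cultured cells were then compared after scaling each tumour by its Panc02 share. A fall then means less RNA than the estimated dilution would leave, provided that the share measures dilution. By construction the median restricted gene does not change on this scale, and the median of all genes of cultured cells was 0.72 higher. Of 10617 genes 994 fell beyond dilution (9.36%) and 6425 rose over it (60.5%). The fall was at least 1 on the log2 scale for 398 genes and at least 2 for 97. In 921 of the 994 all 8 tumours lay below both cultures after scaling, a pattern seen in 10.0% of all genes of cultured cells. With the share from sex-linked genes 4065 genes fell (38.3%), including all 994, and with the lower quartile of restricted genes 110 fell, all of them among the 994. The count was 554 without culture library 1 and 608 without culture library 2. It was 874 without allografts 1 and 7 and 1176 without the muscle-rich allografts 2, 4 and 7. At the edge of the test stood Mmgt1 and Pigg (edgeR adjusted p 0.0499, inside) and Flrt3 and Usp34 (0.0503 and 0.0505, outside). Of the 994 genes, 743 had at least 5 CPM in every fresh NK library and 126 had under 1 CPM in all of them.

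The 12 largest falls among genes with at least 20 CPM in both cultures are given one by one. Of these, Rasef, Cdh6, Cldn3, Areg, Ereg and Ppp2r2c are restricted genes, as are 35 of the 994 falls, so they entered the median that sets the share. Rasef (chromosome 4, 73632816 to 73709231 on GRCm39), a Rab-type GTPase, was 30.1 and 27.2 CPM in culture and at most 0.128 CPM in any tumour (log2 fold change beyond dilution -8.34, SE 0.65, edgeR adjusted p = 1.4e-06). Cldn3, a tight junction protein, was 39.9 and 40.0 CPM in culture and 0, 0.832 and 1.69 CPM in the lowest, median and highest tumour (-4.79, SE 0.79, adjusted p = 0.00051). Cdh6, a cadherin, was 44.3 and 50.3 CPM in culture, 5.42 CPM in allograft 6 and at most 1.16 CPM in the other 7 tumours (-4.91), and did not pass in male hosts alone (adjusted p = 0.081). Krt7, a keratin of ducts, was the most abundant of the 12, at 1198 and 1111 CPM in culture, 3.31 CPM in allograft 2, 1.61 CPM in allograft 3 and 46.1 to 110 CPM in the other 6 tumours. Its fall of 3.38 had the widest error relative to its size (SE 1.04, adjusted p = 0.020), and did not pass without either culture library (adjusted p 0.081 and 0.076) or in female hosts alone (0.072). Mfap3l fell by 4.67, the predicted gene Gm13387 by 4.26, Nefh, the heavy neurofilament chain, by 3.96, Kcnk1, a potassium channel, by 3.68, and Slco4a1, an organic anion transporter, by 3.38. Ppp2r2c, which belongs to the protein phosphatase 2A family, was 29.5 and 36.5 CPM in culture and 0.230 to 3.08 CPM in tumours. The 12 genes were chosen among those with every tumour below both cultures after scaling, so the lack of overlap was fixed by that choice. With the lower quartile share 11 of the 12 still passed, and Krt7 did not (adjusted p = 0.061).

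**Figure D4:**
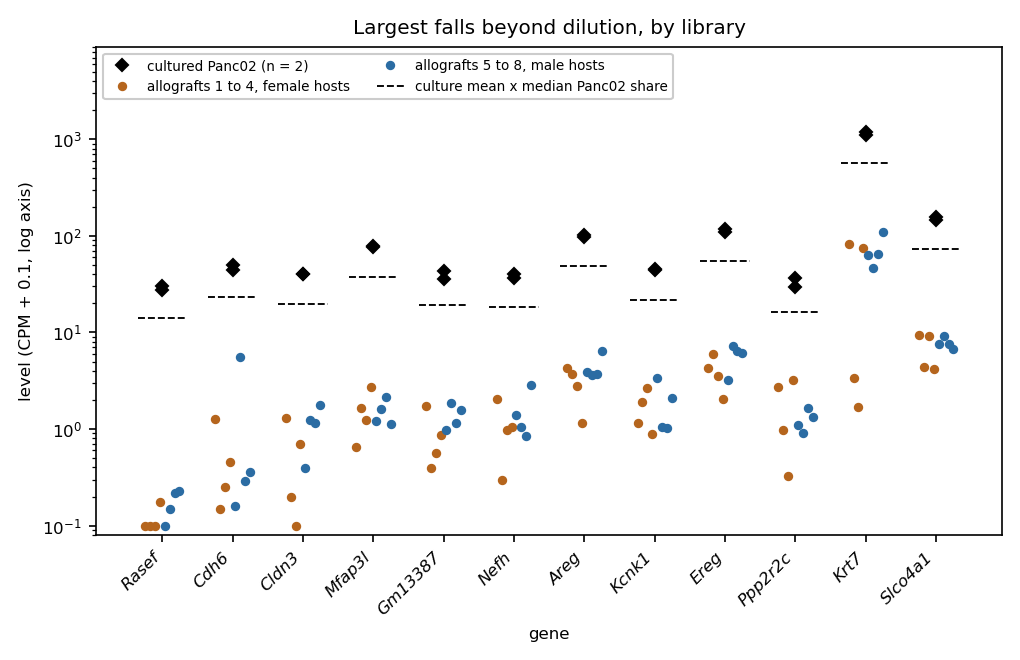
Levels of the 12 genes with the largest fall beyond dilution in each library (CPM plus 0.1, log axis), with cultures and allografts as separate symbols. All tumours stand below the dashed bars, which mark the culture mean multiplied by the median Panc02 share of 48.6%, and Krt7 is lowest in allografts 2 and 3 (3.31 and 1.61 CPM).

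The remaining members of these 12 were ligands of the epidermal growth factor receptor. Areg, amphiregulin, was 96.2 and 102 CPM in culture and 1.06, 3.59 and 6.37 CPM in the lowest, median and highest tumour. Ereg, epiregulin, was 108 and 118 CPM in culture and 1.94, 5.07 and 7.08 CPM in tumours. Both were far below culture in every tumour, and neither had a count in any fresh NK library. Beyond dilution Areg fell by 3.78 (SE 0.32, edgeR adjusted p = 1.9e-06) and for Ereg the log2 fold change was -3.57 (SE 0.29, adjusted p = 1.4e-06). Hbegf, a further ligand of this receptor, fell by 0.54 (adjusted p = 0.024), which did not pass without allografts 1 and 7 (adjusted p = 0.052) or without either culture (0.16 and 0.095). The receptor gene Egfr was 164 and 165 CPM in culture and 104 to 227 CPM in tumours, with a plain log2 fold change of -0.09. Areg, Ereg and Hbegf were the 3 falls among 10 genes of cultured cells in the growth factor list (30%). Over all genes of cultured cells the share was 9.36%. Hgf, Igf1 and Gas6, ligands of other receptor kinases, were at 0 in culture and at 1.22 to 4.22, 21.9 to 75.3 and 68.6 to 321 CPM in tumours.

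Signalling and immune genes of the cultured cells were also among the falls. Ptgs2, cyclooxygenase-2, was 336.5 and 371 CPM in culture and 9.22, 26.0 and 38.9 CPM in the lowest, median and highest tumour (log2 fold change beyond dilution -2.81, SE 0.34, edgeR adjusted p = 5.1e-05). It was the sole fall in the list of myeloid chemokines and colony-stimulating factors, where Csf1 rose by 1.03 in the plain comparison and Ccl2 and Ccl7 went from 0 to medians of 18.8 and 35.8 CPM. Fosl1, an AP-1 subunit, fell by 1.79 from 250.5 and 253 CPM. Tigit, Eomes and Tfrc were picked after their values were seen. Tigit (chromosome 16, 43469230 to 43484509 on GRCm39), known as an inhibitory receptor of lymphocytes, was 212.5 and 193 CPM in culture and 5.05, 12.2 and 18.7 CPM in the lowest, median and highest tumour (-3.055, SE 0.41, edgeR adjusted p = 0.00013). Fresh NK cells held 24.0 to 81.1 CPM of Tigit, below both cultures. Eomes, a transcription factor of NK cells, was 17.6 and 19.7 CPM in culture and 1.29 to 3.13 CPM in tumours, and fell by 1.90, whereas Ncr1, Klrb1c, Klrk1, Gzma, Prf1 and Nkg7 had 0 counts in both cultures. Tfrc, the transferrin receptor, fell by 2.78 from 393 and 412 CPM.

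Ribosome production and cell division genes were lower as groups. Of 20 ribosome biogenesis genes 15 fell beyond dilution (75%), with a list median of -0.85, beside 9.36% and a median of 0.72 over all genes of cultured cells. Nolc1, a nucleolar assembly protein, was 394 and 374 CPM in culture and 63.8, 84.8 and 103 CPM in the lowest, median and highest tumour (-1.16, SE 0.13, edgeR adjusted p = 1.3e-05). Nop56, a core protein of small nucleolar particles, fell by 1.02 from 424 and 411 CPM, and Rrp12, Nop2 and Mybbp1a, which act in ribosome assembly, fell by 1.04, 0.93 and 0.67. Cad, which starts pyrimidine synthesis and was picked after its values were seen, was 394 and 385 CPM in culture and 63.9 to 111 CPM in tumours (-1.155, SE 0.20, adjusted p = 0.0004). Of 35 cell cycle genes 21 fell (60%), with a median of -0.61. Bub1, a kinase of the spindle checkpoint, was 107 and 116.5 CPM in culture and 8.24, 15.7 and 26.1 CPM in the lowest, median and highest tumour (-1.71, SE 0.23, adjusted p = 4.9e-05), and Ttk, Ccnb1, Kif11 and Top2a, which act in mitosis, fell by 1.35, 1.11, 1.09 and 0.91. All 20 and all 35 genes were lower in the plain comparison and fell with the share from sex-linked genes, and 0 of either list fell with the lower quartile share.

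Lipid synthesis genes were lower in the same tumours. Of 22 cholesterol genes 14 fell beyond dilution (63.6%), with a list median of -0.85. Over all genes of cultured cells 9.36% fell, with a median of 0.72. Idi1, an isomerase of the sterol pathway, was 105.3 and 102.8 CPM in culture and 7.40, 12.1 and 19.7 CPM in the lowest, median and highest tumour (-2.02, SE 0.20, edgeR adjusted p = 5.9e-06). Lss, which forms the sterol rings, fell by 1.11 and Sc5d, a late enzyme of the pathway, by 0.87. Of 8 fatty acid genes 3 fell (37.5%). Fasn, fatty acid synthase, was 980 and 982 CPM in culture and 159 to 209 CPM in tumours (-1.42), Elovl6, which lengthens fatty acids, fell by 2.52 from 151 CPM in both cultures, and Acaca, which makes malonyl-CoA, by 0.58. The fall of Acaca did not pass in female hosts alone (edgeR adjusted p = 0.0505), without culture library 1 (0.0565) or with the replicate block (0.10). With the lower quartile share Idi1 and Elovl6 still fell and Lss, Sc5d, Fasn and Acaca did not.

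Several genes of amino acid supply and redox defence fell. The integrated stress response list holds known targets or partners of ATF4. Of its 21 genes, 8 fell beyond dilution (38.1%), beside 9.36% of all genes of cultured cells. Slc7a11, the cystine transporter, was 50.04 and 54.48 CPM in culture and 1.80, 3.92 and 7.40 CPM in the lowest, median and highest tumour (-2.49, SE 0.43, edgeR adjusted p = 0.00042). Psat1, of serine synthesis, was 584 and 590 CPM in culture and 72.3 to 124.5 CPM in tumours (-1.50), and Asns, asparagine synthetase, picked after its values were seen, was 122 and 121 CPM in culture and 15.5 to 32.9 CPM in tumours (-1.37). Shmt2, of one-carbon metabolism, and the transporters Slc7a5 and Slc7a1 fell by 1.06, 0.99 and 0.94. Nupr1, a stress-induced chromatin protein, went the other way and rose by 2.17 in the plain comparison, and Ddit3, the stress factor CHOP, stood there at -0.01. Of 13 NRF2 targets 4 fell (30.8%), beside the same 9.36%. They were Slc7a11 again, Gclc, which limits glutathione synthesis, by 1.27, Gsr by 0.61 and Txnrd1 by 0.58. Without culture library 2 Gsr and Txnrd1 did not pass (edgeR adjusted p 0.076 and 0.055). With the lower quartile share Slc7a11 was the sole fall of either list.

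Of 11 heat shock genes 5 fell beyond dilution, and the list median was 0.00 to 2 decimals. Hspd1, the mitochondrial chaperonin, was 861 and 849 CPM in culture and 140 to 216 CPM in tumours (-1.25, SE 0.15, edgeR adjusted p = 2.8e-05). Hsph1, Hsp90aa1, Hspa1b and Hspa1a, cytosolic chaperones, fell by 1.29, 1.09, 1.36 and 1.00, although Hspa1a and Hspa1b are near-identical copies whose counts cannot be split with certainty. Hsp90ab1, the constitutive form of HSP90, did not pass (adjusted p = 1.0). With the lower quartile share 0 of these genes fell. In the p53 list 2 of 12 genes fell, Mdm2 by 0.93 and Aen by 0.68, a share near the 9.36% of all genes of cultured cells. In the plain comparison 4 of its 14 genes were higher, Fas by 5.06, Pmaip1 by 2.00, Sesn1 by 1.88 and Phlda3 by 0.68, and 8 were lower. The shares over all genes tested were 38.8% higher and 23.3% lower. The call for Phlda3 was lost without culture library 1 or 2 (edgeR adjusted p 0.17 and 0.13).

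Promoters are shown for members of the ribosome and stress response lists because known factors act on promoters of such genes. ATF4 binds C/EBP-ATF response elements, searched here as TGATGNAAN, and MYC binds the E-box CACGTG, which contains the shorter hypoxia element ACGTG. Windows ran from 250 bases before to 50 bases after the RefSeq start on GRCm38.p6, and both strands were searched. Among 19 stress response promoters 5 held TGATGNAAN (26.3%), beside 4.06% of 27025 promoters and 1.89% of those of genes of cultured cells. They were those of Asns, Chac1, Nupr1, Slc7a11 and Trib3, of which Slc7a11 and Asns fell and Nupr1 rose, while Trib3 and Chac1 were 1.64 and 1.45 lower in the plain comparison without passing beyond dilution. Among 13 ribosome biogenesis promoters 4 held CACGTG (30.8%), beside 7.09% of all and 10.8% of those of genes of cultured cells, and 7 held ACGTG (53.8%, beside 19.5% and 27.1%). In cell cycle promoters TTTGAA, the cell cycle homology region, was found in 12 of 29 (41.4%, beside 18.1% of all). Among 711 promoters of genes falling beyond dilution, 2.67% held the C/EBP-ATF response element, beside 1.89% for genes of cultured cells. The E-box was in 11.1% of these falls, the hypoxia element in 25.9% and the cell cycle homology region in 16.9%. For genes of cultured cells these shares were 10.8%, 27.1% and 11.4%. The stress response list was built from known targets or partners of ATF4, so its share does not describe the falls. No test of these shares was run. A match is a description of letters, not of binding. Windows were printed only where a match was found. The windows of Psat1, Shmt2 and Slc7a1, which also fell, held no TGATGNAAN. The windows below, each 300 bases from 5′ to 3′, belong to Slc7a11 (chr3:50443564-50443863, minus strand), Asns (chr6:7693160-7693459, minus strand) and Cad (chr5:31054530-31054829, plus strand). Capitals mark the matches to TGATGNAAN in Slc7a11 and Asns and to ACGTG in Cad.
Slc7a11: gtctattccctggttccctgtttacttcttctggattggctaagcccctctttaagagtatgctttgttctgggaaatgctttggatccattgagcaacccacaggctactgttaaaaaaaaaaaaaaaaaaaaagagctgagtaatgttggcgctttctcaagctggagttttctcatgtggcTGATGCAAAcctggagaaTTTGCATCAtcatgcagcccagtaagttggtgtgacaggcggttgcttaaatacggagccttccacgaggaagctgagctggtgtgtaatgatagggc
Asns: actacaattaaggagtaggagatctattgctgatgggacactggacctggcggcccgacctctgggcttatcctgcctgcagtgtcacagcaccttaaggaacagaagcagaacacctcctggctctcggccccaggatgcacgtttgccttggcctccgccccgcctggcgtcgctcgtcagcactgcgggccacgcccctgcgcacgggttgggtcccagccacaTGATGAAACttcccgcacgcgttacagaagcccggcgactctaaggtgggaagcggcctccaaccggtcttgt
Cad: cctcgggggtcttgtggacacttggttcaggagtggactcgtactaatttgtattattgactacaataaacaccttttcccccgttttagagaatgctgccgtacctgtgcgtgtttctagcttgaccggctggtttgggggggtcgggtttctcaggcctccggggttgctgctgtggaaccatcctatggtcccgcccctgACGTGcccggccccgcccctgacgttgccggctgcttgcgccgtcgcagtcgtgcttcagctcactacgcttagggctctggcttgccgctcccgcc
Slc7a11 held 2 matches on opposite strands, 66 and 48 bases before the start, and its RNA went from 50.04 and 54.48 CPM to a median of 3.92 CPM. Asns held its match 23 bases before the start. Cad held ACGTG 47 bases before its start and no CACGTG. The windows of Nolc1 and Nop56, whose falls were also among the largest of the ribosome list, held neither CACGTG nor ACGTG.

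No fall beyond dilution passed edgeR's test in the lists of glycolysis (0 of 14), the unfolded protein response (0 of 14), oxidative phosphorylation (0 of 20), hypoxia (0 of 11) and cytoskeletal targets of SRF (0 of 13). With 9.36% of all genes of cultured cells falling, lists of this size would hold few falls at the background, so nothing is read from these counts. At an unadjusted p under 0.05 the unfolded protein response had 1 such gene and the others 0, and by DESeq2 all had 0. With the share from sex-linked genes 5, 4, 3, 0 and 3 genes of these lists fell. Hspa5, the main chaperone of the endoplasmic reticulum, was 832 and 861 CPM in culture and 506 to 680.4 CPM in tumours, and stood 0.55 above dilution. Cox4i1, a subunit of cytochrome oxidase, was 225 and 228 CPM in culture and 355 to 612 CPM in tumours, and rose by 1.09 in the plain comparison.

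**Figure D5:**
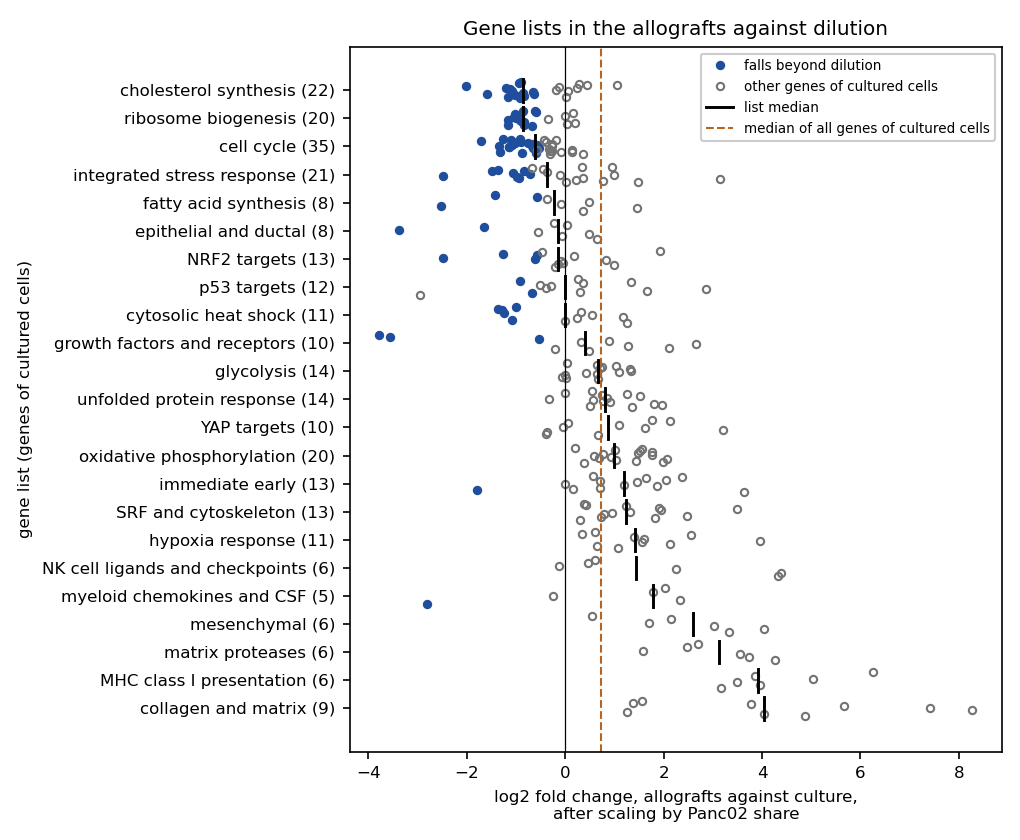
Log2 fold change of each gene of cultured cells after scaling by Panc02 share, by gene list, with genes falling beyond dilution marked and each list's median as a bar. Ribosome biogenesis and cholesterol synthesis have medians of -0.85, beside 0.72 for all genes of cultured cells, and the medians of collagen and MHC class I lists are 4.05 and 3.91.

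Epithelial genes fell unevenly. Of 8 genes of cultured cells in this list Krt7 and Krt19 fell beyond dilution (25%), beside 9.36% of all such genes. Krt19 was 402 and 429 CPM in culture and 19.0, 59.5 and 167 CPM in the lowest, median and highest tumour (-1.65, SE 0.41, edgeR adjusted p = 0.0054), and it too was lowest in allograft 2. Krt8 was 359 to 756.5 CPM in tumours and stood at -0.23 after scaling (adjusted p = 0.28), and Krt18 at 0.03. Cdh1, E-cadherin, was 155 and 157 CPM in culture and 22.2 to 77.0 CPM in tumours, at -0.56 with an adjusted p of 0.20. Sox9 and Pdx1, transcription factors of pancreatic ducts and progenitors, stood at 0.49 and 0.65 after scaling. The plain log2 fold change of Epcam was 0.15 (adjusted p = 0.83) and turned to -0.11 without allograft 7. Among genes mutated in pancreatic cancer, Trp53 was 0.91 lower and stood 0.07 above dilution. Cdkn2a rose from 0.342 and 0.119 CPM to between 2.19 and 10.9 CPM, and Smad4 from 15.7 and 17.3 CPM to between 20.2 and 36.6 CPM.

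Host sex was compared within the tumours. By edgeR 3 genes differed (0.0129%), the Y-linked genes Kdm5d, Eif2s3y and Uty, which were at most 0.174 CPM in female hosts and 2.56 to 14.3 CPM in male hosts. At an unadjusted p under 0.05 there were 3779 genes, and DESeq2 called 1122. The edgeR count was 32 without allograft 4, 6 without allograft 5, 0 without allograft 6 or allograft 8 and 1 without allografts 2, 4 and 7. Of the 1357 genes absent in culture 0 differed by edgeR, 129 had an unadjusted p under 0.05 and DESeq2 called 28. Xist and Ddx3y did not pass by edgeR, although their levels did not overlap between host sexes. The edgeR count therefore does not show equal levels. Of the 994 genes falling beyond dilution 445 had an unadjusted p under 0.05 between host sexes (44.8%, beside 16.2% of all genes tested), and 426 of these were lower in female hosts. Tumours of female hosts had Panc02 shares of 39.3 to 49.3% against 48.0 to 57.9% in male hosts, and they include allografts 2 and 4 with the most muscle RNA. The part of these values in the result was not tested.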

How the data were processed

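The deposited files hold raw counts per gene for each library. Per the submitters' processing notes, reads were trimmed with cutadapt 4.4, aligned with HISAT2 2.2.1 to GRCm39, sorted with SAMtools 1.19.2 and counted with featureCounts 2.0.6, and the file headers show that the authors used strand setting 2, Ensembl 113 exons and multi-mapping reads. Mates were counted singly: 66.7 to 77.9% of genes with 1 to 20 counts had even counts, against 50 by chance. Per the labels, RNA was extracted with TriZOL and poly(A) libraries were stranded. All 37 mitochondrial genes were at 0 counts. Gene symbols matched 51498 of 78298 IDs and 97.3 to 99.1% of counts.

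Counts were tested with edgeR 4.0.16 (quasi-likelihood, robust, TMM scaling, default expression filter) in R 4.3.3, with culture (n = 2), female-host (n = 4) and male-host (n = 4) group means. The contrast was the mean of both allograft groups minus culture, with 7 residual degrees of freedom and a common biological coefficient of variation of 0.372. Dilution was tested in the same model with each tumour's library size multiplied by its Panc02 share in place of TMM scaling. SE is the absolute log2 fold change over the square root of F. Alternatives included DESeq2 1.42.0, other scalings, filters and shares, and leaving out each library (20 fits of the plain comparison and 23 against dilution). On simulated data with 50 genes per fold size, 62% of genes changed by -1 and 96% of those changed by -2 beyond dilution were recovered. The simulation diluted every gene by the same share that the fit used and added no host RNA to these genes. Its recovery therefore does not cover error in the share.

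The members and gene lists were chosen with earlier results of these data known. Genes were named by rule: per host list up to 4 genes absent in culture with the highest level per length, the 8 highest such genes of all, the 12 largest falls and 8 largest rises without overlap, per program up to 4 called members by smallest p and those going against it, and fixed epithelial, mesenchymal, sex-linked and driver genes. Tigit, Tfrc, Eomes, Asns, Cad, Col1a2 and Cd274, with other members given by count or as context, were picked after their values were seen. Promoter sequences are RefSeq's on GRCm38.p6, a different build from the counts. Some members of the lists are not reported here.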

Additional observations from a re-analysis of the deposited data

Results flagged for a closer look

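In 286 sets of 8 tumours examined, 11 held a tumour far from the other 7 by Dixon's criterion. Chance flags about 1 in 20 sets. Allograft 2 stood apart for 4 of them, with Krt8 at 359.4 CPM (others 543.2 to 756.5), Krt18 at 235.8 CPM (others 427.6 to 659.4), the epithelial and ductal list sum at 707.6 CPM (others 1257 to 1832) and the acinar gene Pnlip at 0.0487 CPM (others 0). The flag for Pnlip rests on a level near 0, and with the other 7 tumours at 0 any count would be flagged, so nothing is read from it. Allograft 4 stood apart for Herpud1, of the unfolded protein response, at 110.3 CPM (others 67.1 to 84.9) and for Hbegf at 29.8 CPM (others 48.7 to 69.9). Allograft 1 stood apart for Cox6c, a subunit of cytochrome oxidase, at 363.4 CPM (others 239.4 to 283.9) and for Smad4 at 20.2 CPM (others 29.2 to 36.6). Allograft 3 held the B cell receptor gene Cd79b at 66.5 CPM (others 5.93 to 16.3), allograft 5 held Cd4 at 31.5 CPM (others 17.4 to 22.9), and allograft 7 held the tight junction gene Cldn4 at 1.25 CPM (others 0 to 0.205).

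Between host sexes the test of the difference called 3 Y-linked genes, with log2 fold changes of female minus male hosts of -8.31 for Kdm5d, -7.64 for Eif2s3y and -9.97 for Uty. They are known markers of male cells.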

How the results depend on the processing

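The Panc02 share decided most. Its median was 48.6% from restricted genes, 24.1% from their lower quartile and 89.8% from sex-linked genes, and the genes falling beyond dilution numbered 994, 110 and 4065, or 4666 with TMM scaling and no share. Leaving out each library gave 554 to 1071 falls. With the lower quartile, the log2 value after scaling changed sign for these named falls, of which Acaca, Gsr and Txnrd1 alone passed as higher (edgeR adjusted p 0.0427, 0.0498 and 0.028): Acaca (0.52), Aen (0.42), Gsr (0.48), Hbegf (0.57), Hsp90aa1 (0.016), Kif11 (0.007), Mdm2 (0.17), Nop56 (0.079), Rrp12 (0.05), Sc5d (0.22), Shmt2 (0.038), Slc7a5 (0.11), Txnrd1 (0.52) and Wdr43 (0.17). Epcam turned lower in female hosts only (-0.70), with the replicate block (-1.25), without allografts 1 and 7 (-0.11) and in some fits leaving out a library, whose values ran from -0.11 to 0.34. The genes differing by host sex numbered 137 with no filter, 1122 by DESeq2, 1 without allografts 2, 4 and 7, and 0 to 32 leaving out each library. With at least 5 CPM required in all tumours, 634 genes were absent in culture. Replicate numbers only name samples here. With them as a replicate block 7623 genes were higher, 4421 lower and 848 fell beyond dilution, and Krt7 lost its call (adjusted p = 0.38). DESeq2 called 9561 higher, 5706 lower and 1018 falls. Over all alternatives, 4733 values of 238 named genes kept direction and side of the threshold, 131 lost the call, 14 gained it and 19 reversed.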
